A study of Arabidopsis thaliana with 36 samples.

Results

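Leaves of opt3-2 plants were compared with leaves of Columbia-0 plants by RNA sequencing, over all genes and by function. The comparison rests on 6 of the 12 summed biological replicates of the series, 3 of opt3-2 leaf and 3 of Columbia-0 leaf, or 18 of its 36 run libraries. They were chosen by the column names of the deposited count table, and the 3 run columns of each replicate were added together. The column names write S where the sample titles write L, and S was read as leaf. opt3-2 is an Arabidopsis thaliana line with a viable insertion allele of OPT3, and Columbia-0 is the wild type it was set against. Both genotypes were grown for 11 days on plates and for 22 days in minimal hydroponic solution under 16 h light and 8 h dark. Each sample was a pool of 3 to 4 plants. The labels call the medium replete, while a treatment text attached to every sample of both genotypes speaks of 20 µM CdCl2 for 72 h. Which statement holds was not settled, so every value below is a difference between genotypes under the same, not fully known, growth condition.

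OPT3 is a membrane transporter of the oligopeptide transporter family that works in the phloem, the tissue that carries sugars and signals out of leaves. It loads iron into the phloem and takes part in telling the root how much iron the shoot holds, so plants with little OPT3 keep up iron uptake in roots while leaves gather metal. Leaf cells hold iron mostly in chloroplasts and mitochondria, and keep free iron low with the storage protein ferritin, because free iron feeds the formation of reactive oxygen species.

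The opt3-2 leaf replicates held 36705595 to 37685493 reads each and the Columbia-0 leaf replicates 23981444 to 30816450. Pearson correlations of log2 CPM (counts per 1000000 reads, with library sizes scaled by TMM factors) were 0.993 to 0.995 within opt3-2 leaves, 0.99 to 0.992 within Columbia-0 leaves and 0.971 to 0.982 between them. The first principal component, with 66.6% of the variance, separated the genotypes, and the second, with 11.2%, set Columbia-0 replicate 1 apart from the other two Columbia-0 replicates. The opt3-2 replicates came from runs numbered 1 to 3 and the Columbia-0 replicates from runs 2 to 4 or 5 to 7, so that run set and genotype cannot be told apart in full. In bulk leaf tissue, fewer cells of a type and less RNA per cell cannot be told apart. Replicates are described as biological, but whether each was its own planting is not stated, and a p-value here speaks only of the spread among these samples, which may be partly technical.

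OPT3 itself (AT4G16370, chromosome 4, 9247302 to 9250343, minus strand) was at 18.8, 21 and 18.4 CPM in the opt3-2 leaf replicates, against 128, 97.8 and 80.7 CPM in the Columbia-0 leaf replicates. All opt3-2 leaves lay far below all Columbia-0 leaves. The log2 fold change was -2.40 (SE 0.16, adjusted p = 2.66e-06 by edgeR's quasi-likelihood F test with Benjamini-Hochberg adjustment over all genes, the test behind every adjusted p given here). In roots the log2 fold change was -0.41 (adjusted p = 0.125), and the difference, leaf minus root, was -1.99 (adjusted p = 0.000171).

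Of 21692 genes tested in leaves, 6090 (28.1%) had an adjusted p under 0.05 and are called changed here. The rise was in 3349 genes (15.4%) and the fall in 2741 (12.6%). Most changes were small: 78.3% of the called genes moved by less than 2-fold, and the median log2 fold change of all tested genes was 0.00, with quartiles at -0.25 and 0.21. A change of at least 2-fold was called in 779 genes upward (3.59%) and 544 downward (2.51%), and of at least 4-fold in 266 upward and 115 downward. The 3 replicates of one genotype lay wholly on one side of the other 3 in 10816 genes (49.9%).

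Among the genes that rose the most, AT3G49340, which encodes a cysteine proteinase, was at 50.4, 41.9 and 90.1 CPM in opt3-2 leaves and at 2.01, 1.87 and 1.88 CPM in Columbia-0 leaves (log2 fold change 4.98, SE 0.31, adjusted p = 2.23e-06). The cytochromes P450 CYP82C2 (AT4G31970) and CYP71A12 (AT2G30750) rose by 4.35 and 4.3 on the log2 scale. CYP82C2 makes a hydroxylated indole cyanogenic compound and CYP71A12 turns an indole aldoxime into the nitrile that leads to camalexin-type defence compounds. The methyltransferase gene PXMT1 (3.93), the berberine-bridge-type oxidase gene AT1G26410 (3.74) and the transcription factor gene WRKY71 (4.1) followed. No replicate of opt3-2 overlapped a replicate of Columbia-0 in any of these genes, as the rule for naming the highest genes required.

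Among genes that fell, AT5G14550, which encodes a glycosyltransferase-like protein, was at 5.16, 5.9 and 5.85 CPM in opt3-2 leaves and at 49.2, 47.8 and 42 CPM in Columbia-0 leaves (log2 fold change -3.04, SE 0.12, adjusted p = 1.32e-07). AT1G62510, of the lipid transfer protein superfamily, was at 10.4, 7.09 and 8.12 CPM against 87.2, 119 and 79 CPM in Columbia-0 leaves (-3.48, SE 0.35). Cell wall genes stood among the 10 lowest: XTH18, a xyloglucan endotransglucosylase, had a log2 fold change of -2.78, EXLA1, an expansin-like protein, of -2.58, and PELPK1, a cell wall protein, of -2.70. Among called nuclear genes, the greatest gains in mean CPM were those of PR2, PR5, AT2G25510, AT5G42530 and APX1, and the greatest losses included those of the antenna genes LHCB1.4 and LHCB2.3, the peroxidase gene PRXR1 and AT2G45180. Genes that were not called could differ by more, such as LHCB1.3, with 16956, 16778 and 16618 CPM in opt3-2 leaves against 21069, 22921 and 22167 CPM in Columbia-0 leaves (-0.39, adjusted p = 0.499, against 0.000857 in leaves alone).

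**Figure D1:**
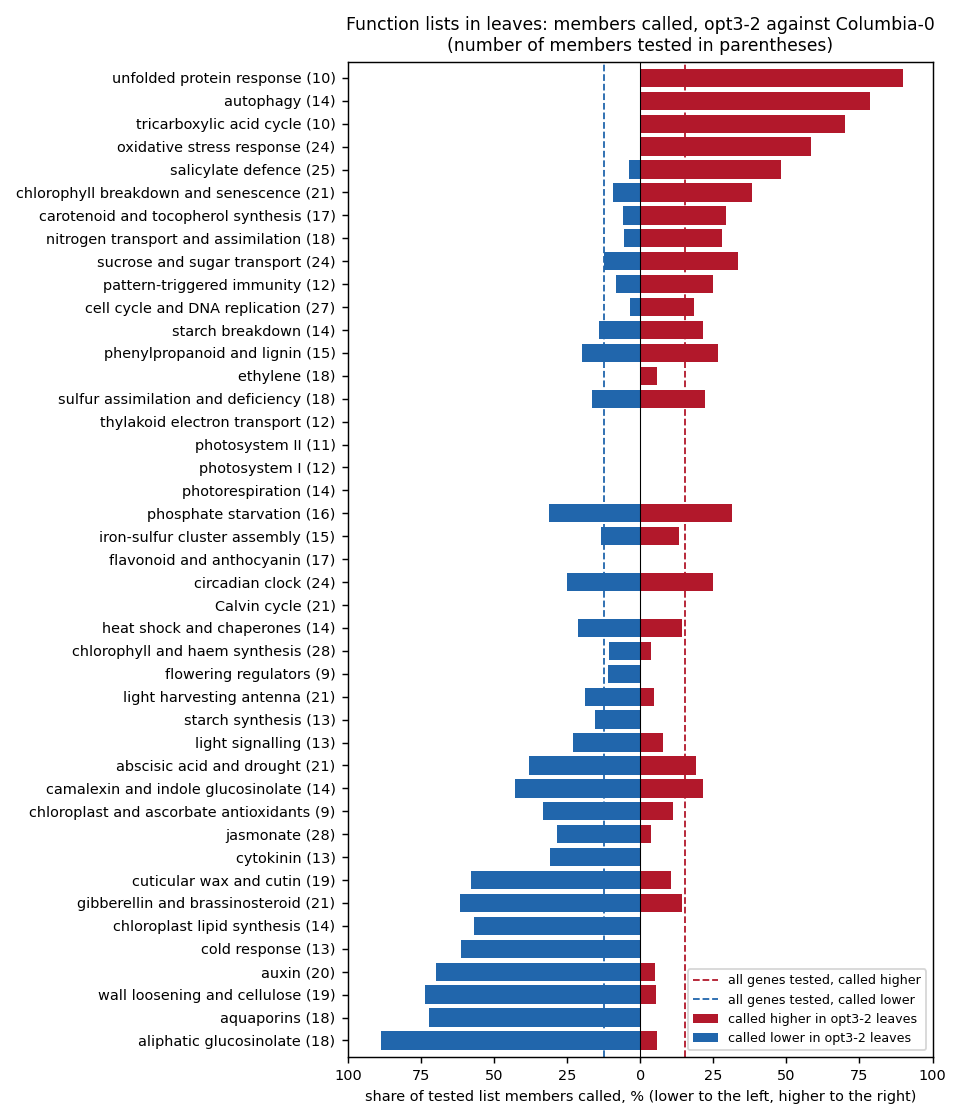
Share of the tested members of each of 43 function lists that were called in opt3-2 against Columbia-0 leaves, in percent, with higher members to the right in red and lower members to the left in blue. The dashed lines give the same shares over all 21692 genes tested (15.4% higher and 12.6% lower), and the lists run from the unfolded protein response, where 9 of 10 members rose, to aliphatic glucosinolates, where 16 of 18 fell.

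Salicylate-type defence genes rose in opt3-2 leaves. Salicylate is the hormone that marks defence against pathogens that feed on living tissue, and its classical readouts are secreted PR proteins. Of 25 tested members of the salicylate list, 12 rose (48%, against 15.4% of all genes) and 1 fell, with a median log2 fold change of 0.26. PR5 (AT1G75040), a thaumatin-like protein, was at 1037, 964 and 1824 CPM in opt3-2 leaves and at 120, 133 and 184 CPM in Columbia-0 leaves. The lowest opt3-2 replicate was well above the highest Columbia-0 replicate, and opt3-2 replicate 3 was the highest of all. Its log2 fold change was 3.13 (SE 0.28, adjusted p = 1.99e-05). The glucanase gene PR2 (AT3G57260) gave 2.72 (SE 0.26) and PR1 (AT2G14610) 2.22 (SE 0.25). Enzymes of salicylate synthesis rose: ICS1, which makes isochorismate, with 75.5, 75.8 and 103 CPM against 42.8, 44.2 and 40.1 CPM in Columbia-0 leaves (log2 fold change 1.00) and PBS3, which joins it to glutamate, with a log2 fold change of 1.23. So did DMR6 (1.22) and DLO1 (1.16), which hydroxylate salicylate and so use it up.

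Of the other members, 12 did not pass, among them regulators and early targets of the same pathway. SARD1 and CBP60G, the transcription factors that switch on ICS1, had log2 fold changes of -0.10 and 0.03, and PAD4, a defence lipase-like protein, 0.21, all with an adjusted p above 0.7. WRKY70 (-0.18), PCC1 (-0.11) and ALD1 (0.02) did not pass the test either. UGT76B1, which attaches glucose to salicylate and to isoleucic acid, fell, with 0.584, 0.502 and 1.48 CPM in opt3-2 leaves against 0.655, 3.34 and 7.91 CPM in Columbia-0 leaves. There the groups overlap, and Columbia-0 replicate 3 was the highest (log2 fold change -2.27, adjusted p = 0.0201). The call was lost without Columbia-0 replicate 3 (adjusted p = 0.119), without opt3-2 replicate 1 (0.0665) or replicate 2 (0.0686), and by limma voom (0.111). It was also lost with a covariate for the run set (0.0503). The median of the salicylate list was highest in opt3-2 replicate 3, and without that replicate 9 members rose.

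Receptors and transcription factors of defence rose by class. Of 99 tested cysteine-rich and lectin receptor kinases, 41 rose (41.4%) and 10 fell. Of 146 tested intracellular receptors of the NBS-LRR type, 37 rose (25.3%) and 6 fell, but only 19 rose without opt3-2 replicate 3. The count was 22 when opt3-2 replicate 2 was left out, 23 for Columbia-0 replicate 2 and 24 for Columbia-0 replicate 1. Of 61 tested WRKY factors, the plant family that binds W-box elements, 27 rose (44.3%) and 4 fell (1 or 2 without any one replicate other than Columbia-0 replicate 1). CRK37 was at 50.3, 52.6 and 80.1 CPM in opt3-2 leaves against 7.45, 8.86 and 8.25 CPM in Columbia-0 leaves (log2 fold change 2.89, SE 0.22), and WRKY8 at 36.4, 33.3 and 33.7 CPM against 3.27, 4.63 and 7.39 CPM (2.74, SE 0.22). Leucine-rich repeat kinases went the other way on balance: of 168 tested, 23 rose (13.7%) and 44 fell (26.2%, against 12.6% of all genes). Of 12 genes of the response to microbial patterns, 3 rose, which were NHL10 (3.26), FRK1 (1.79) and WAK1 (0.85). The 1 that fell was called lower with all replicates in the fit, and 0 were without any one opt3-2 replicate or without Columbia-0 replicate 1 or 2.

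**Figure D2:**
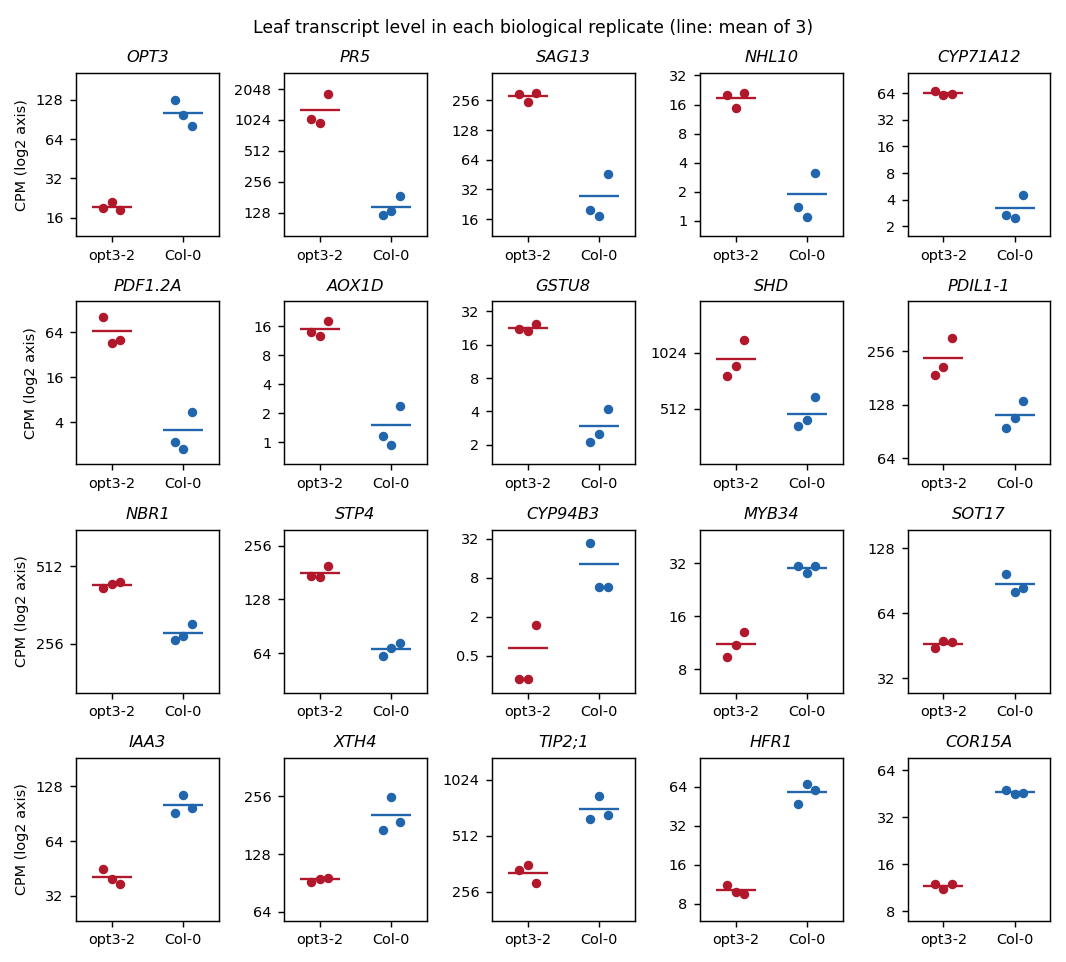
CPM of 20 genes in each leaf replicate on log2 axes, with opt3-2 to the left of Columbia-0 and a line at each mean of 3. The 3 opt3-2 replicates of OPT3 lie at 18.4 to 21 CPM, below the Columbia-0 replicates at 80.7 to 128 CPM, while PR5 and SAG13 show the reverse order.

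Jasmonate genes were lower or not called, apart from a defensin. Jasmonate is the hormone of wound and necrotroph defence; LOX, AOS, AOC and OPR3 enzymes make it, JAZ proteins repress its targets, and CYP94 enzymes inactivate it. Of 28 tested members, 1 rose and 8 fell (28.6%, against 12.6% of all genes), and the median log2 fold change was -0.91. The 3 opt3-2 replicates lay below all 3 Columbia-0 replicates in 20 members (71.4%, against 23.9% of all genes). OPR3 was at 42.4, 47.8 and 51.1 CPM in opt3-2 leaves and at 148, 93.9 and 112 CPM in Columbia-0 leaves (log2 fold change -1.32, SE 0.24, adjusted p = 0.00213). JMT, which methylates jasmonate, fell by 1.09 and CYP94C1 by 1.53. CYP94B3 was at 0.215, 0.22 and 1.51 CPM against 27.9, 5.74 and 5.78 CPM in Columbia-0 leaves (-4.32, SE 1.08, adjusted p = 0.0116).

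Columbia-0 replicate 1 stood above the other Columbia-0 replicates in 24 of the 28 jasmonate genes, and without it the adjusted p of CYP94B3 was 0.0514. By limma voom it was 0.0639. MYC2, the master transcription factor of the pathway, was at 69.8, 76.9 and 86.3 CPM in opt3-2 leaves and at 229, 135 and 190 CPM in Columbia-0 leaves, and missed the threshold (-1.25, SE 0.43, adjusted p = 0.0514). It passed by limma voom (adjusted p = 0.0468), by DESeq2 (0.048), in leaves alone (0.000933) and with a replicate block within tissue (0.00112). In a fit to the 6 leaf replicates alone, where the spread is not shared with the root replicates, 20 of the jasmonate members were called lower, and with the replicate block 18 were. Without Columbia-0 replicate 1 in the fit of both tissues, 5 were. The 1 member that rose was the plant defensin gene PDF1.2A, at 103, 45.5 and 50.3 CPM in opt3-2 leaves and at 2.17, 1.74 and 5.44 CPM in Columbia-0 leaves (4.37, SE 0.48, adjusted p = 7.63e-05). Its close relatives PDF1.2c and PDF1.3 rose by 3.74 and 3.68, and reads of such near-identical copies may have been split between them in the authors' counting. ORA59, the ethylene and jasmonate factor known to drive PDF1.2, had a log2 fold change of 0.10 (adjusted p = 0.848).

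Genes for the synthesis of sulfur-rich defence compounds showed a divided pattern, with transcripts of the camalexin branch higher and those of glucosinolate synthesis lower. The compounds themselves were not measured. Glucosinolates are amino-acid-derived thioglucosides of the cabbage family, and the aliphatic ones start from methionine. Of 18 tested aliphatic glucosinolate genes, 16 fell (88.9%, against 12.6% of all genes), 1 rose and 1 did not pass, and the median log2 fold change was -0.60. The members that fell span the pathway: chain elongation by BCAT4 (-0.49) and MAM1 (-0.42), core synthesis by CYP79F1 (-0.74), CYP79F2 (-1), CYP83A1 (-0.51) and SUR1 (-0.63), and side-chain oxidation by FMOGS-OX1 (-0.85). SOT17 (AT1G18590), the sulfotransferase of the last core step, was at 44, 47.4 and 47.1 CPM in opt3-2 leaves and at 97.6, 80.4 and 83.6 CPM in Columbia-0 leaves (-0.92, SE 0.08, adjusted p = 2.08e-05). The groups did not overlap. MAM3, a chain-elongating synthase that also makes longer chains, was the exception, at 33.1, 32.2 and 29.8 CPM against 18.4, 19.6 and 17.7 CPM (0.77, SE 0.10). The regulator MYB28 fell by 0.37, a call lost without opt3-2 replicate 1 or 3 or Columbia-0 replicate 1, with an adjusted p of at most 0.0851, and with a covariate for the run set (0.0605). Its partner MYB29 (-0.40, adjusted p = 0.0715) did not pass, but did by limma voom (0.0218) and DESeq2 (0.0108).

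Indole glucosinolates and camalexin share the step from tryptophan to indole acetaldoxime. The enzymes of that step fell: CYP79B3 was at 71.6, 80.2 and 74.3 CPM in opt3-2 leaves and at 222, 176 and 180 CPM in Columbia-0 leaves (log2 fold change -1.35, SE 0.16, adjusted p = 0.000126), and CYP79B2 fell by 0.71. The call of CYP79B2 was lost without opt3-2 replicate 1 or 2 or Columbia-0 replicate 1, with an adjusted p of at most 0.0683. Genes of the glucosinolate side also fell, CYP83B1 by 0.62, SOT16 by 0.95, UGT74B1 by 0.64 and the regulator MYB34 by 1.43. The camalexin enzymes beyond the branch rose: CYP71A12 was at 67.8, 61.3 and 62.6 CPM against 2.67, 2.45 and 4.46 CPM, CYP71A13 rose by 2.37 and PAD3, the last enzyme, by 1.64. In all, 3 of the 14 members of this list rose (21.4%, against 15.4% of all genes) and 6 fell (42.9%, against 12.6%).

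Oxidative stress genes were higher. The list holds markers of mitochondrial and cytosolic oxidative stress, detoxifying glutathione transferases and catalases. Of 24 tested members, 14 rose (58.3%, against 15.4% of all genes), 0 fell (against 12.6%), and the median log2 fold change was 0.88. The count was also 14 without each of the 6 replicates in turn. AOX1D, an alternative oxidase of mitochondria, was at 13.9, 12.7 and 18.1 CPM in opt3-2 leaves and at 1.16, 0.935 and 2.36 CPM in Columbia-0 leaves (3.29, SE 0.31, adjusted p = 7.2e-05). AOX1A (0.69), the external NADH dehydrogenase NDB2 (1.02), catalase CAT1 (0.95) and the dehydroascorbate reductase DHAR2 (0.81) also rose. APX1, the cytosolic ascorbate peroxidase, which uses haem iron to remove peroxide, was at 909, 954 and 1134 CPM against 410, 363 and 379 CPM (1.38, SE 0.10, adjusted p = 3.55e-06).

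As a class, 23 of 53 tested glutathione transferases rose (43.4%) and 8 fell (4 or 5 without any one opt3-2 replicate or Columbia-0 replicate 1). GSTU8 (AT3G09270) was at 22.1, 21.3 and 24.6 CPM in opt3-2 leaves and at 2.12, 2.49 and 4.2 CPM in Columbia-0 leaves (log2 fold change 2.92, SE 0.20), and GSTU10 rose by 2.04. GSTF6 (1.96) and GSTF7 (1.85) are neighbouring near-identical copies, and their counts are uncertain to the same degree as those of the defensins. Within chloroplasts the ascorbate and glutathione system showed no such rise. Of 9 members of that list, 1 rose, stromal ascorbate peroxidase SAPX (0.30), and 3 fell, among them thylakoid ascorbate peroxidase TAPX (-0.39) and the peroxidase GPX1 (-0.31). The stress-induced zinc finger gene ZAT10 was at 14.7, 22 and 26.7 CPM in opt3-2 leaves and at 124, 70 and 60.1 CPM in Columbia-0 leaves but did not pass the test (-2, SE 1.05, adjusted p = 0.185). It passed in the fit to the 6 leaf replicates alone (adjusted p = 0.00133) and with a replicate block within tissue (0.00427), where 3 and 2 members of the oxidative stress list were called lower. The related gene ZAT12 was at -0.01 (adjusted p = 1).

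Chaperone genes of the endoplasmic reticulum rose together. When unfolded proteins gather in that compartment, bZIP factors switch on a set of chaperones and folding enzymes, many through promoter elements that contain the bases CACGTG, which also form the G-box of plant promoters. Of 10 tested members of the unfolded protein response list, 9 rose (90%, against 15.4% of all genes), and the median log2 fold change was 0.78. SHD (AT4G24190), the HSP90 of the endoplasmic reticulum, was at 766, 867 and 1201 CPM in opt3-2 leaves and at 414, 447 and 590 CPM in Columbia-0 leaves (0.97, SE 0.16, adjusted p = 0.00119). PDIL1-1, a protein disulfide isomerase, was at 188, 208 and 305 CPM against 94.6, 108 and 134 CPM (1.06, SE 0.17, adjusted p = 0.000908). In both genes all opt3-2 replicates were above all Columbia-0 replicates, and opt3-2 replicate 3 was the highest.

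The luminal HSP70s BIP2 (0.90) and BIP1 (0.71), their co-chaperones ERDJ3B (0.81) and SDF2 (0.75), and the lectin chaperone CRT1 (0.48) rose as well. BIP3, the most inducible HSP70 of the set, was at 50, 65.2 and 92.9 CPM in opt3-2 leaves and at 10.9, 20.1 and 26.3 CPM in Columbia-0 leaves (1.85, SE 0.46, adjusted p = 0.0114), and its call was lost when opt3-2 replicate 3 or Columbia-0 replicate 1 was left out, with an adjusted p of at most 0.0527. BZIP60, a transcription factor of the response, did not pass (0.03, SE 0.16); its activity depends on splicing, which gene counts do not show. Of the 10 members, 8 also passed the test that the leaf effect exceeded the root effect. A separate list of heat shock and chaperone genes did not share the rise. Of 14 tested members 2 rose (1 without opt3-2 replicate 3), which is 14.3%, near the 15.4% of all genes. In that list 3 fell (21.4%, against 12.6% of all genes), and 5 more members could not be tested.

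Promoter stretches of 4 members that rose are printed here because the G-box letters stand in 7 of the 10 promoters of the list (70%), against 8.53% of 21545 promoters of all genes tested. A promoter is taken here as the 250 bases before to 50 bases after the annotated start, and the letters are a palindrome, so both strands read alike. Each line gives 100 bases from within the 250 before the start, placed to hold the element, 5′ to 3′ on the gene's strand, from RefSeq's TAIR10.1 assembly, with CACGTG in capitals.
SHD (chr4:12556059-12556158, minus strand): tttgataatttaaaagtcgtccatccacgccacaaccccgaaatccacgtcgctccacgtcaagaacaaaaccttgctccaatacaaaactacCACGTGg
CRT1 (chr1:21092816-21092915, minus strand): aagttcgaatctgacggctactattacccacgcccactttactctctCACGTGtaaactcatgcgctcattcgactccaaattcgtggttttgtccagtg
SDF2 (chr2:10684009-10684108, plus strand): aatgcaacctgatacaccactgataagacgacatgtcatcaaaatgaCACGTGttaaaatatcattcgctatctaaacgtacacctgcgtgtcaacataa
BIP3 (chr1:2931974-2932073, minus strand): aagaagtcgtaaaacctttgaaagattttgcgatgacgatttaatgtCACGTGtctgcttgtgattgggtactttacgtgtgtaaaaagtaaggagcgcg
The element begins 7 bases before the start in SHD, 159 in CRT1, 62 in SDF2 and 176 in BIP3. Over all genes that rose in leaves the letters were in 8.9% of promoters and over all genes that fell in 9.05%, both near the 8.53% of all genes. In the other function lists the share ran from 0, as in the aquaporins, to 63.6% in photosystem II (7 of 11 promoters). It was 41.7% in the clock list and 38.5% in the cold list. BZIP60, the listed gene that did not rise, holds the letters too. In this list only BZIP60 and the 4 genes printed hold them wholly within the 250 bases before the start. The other matches in the list reach into the 50 bases after it. A match describes these letters in this window and is not evidence that a factor binds there.

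Transcripts of protein breakdown genes rose by smaller amounts, while breakdown itself was not measured. The proteasome degrades proteins marked with ubiquitin, and 23 of its 39 tested subunit genes rose (59%, against 15.4% of all genes), 0 fell, and the median log2 fold change was 0.24. PA200, the proteasome activator, was at 189, 202 and 221 CPM in opt3-2 leaves and at 111, 115 and 123 CPM in Columbia-0 leaves (0.81, SE 0.11, adjusted p = 0.000234). The count of subunits that rose was 11 when opt3-2 replicate 3 was left out, 15 for Columbia-0 replicate 2, and 14 when only the highest run of each replicate was used. Autophagy encloses cell contents for breakdown in the vacuole. Of 14 tested autophagy genes, 11 rose (78.6%), 0 fell, and all 14 had a log2 fold change above 0. NBR1, the receptor that brings ubiquitin-marked cargo to autophagy, was at 421, 436 and 445 CPM against 265, 274 and 305 CPM (0.63, SE 0.07, adjusted p = 0.00013), and ATG8I (0.53), ATG8A (0.52) and ATG7 (0.42) rose with it. Without opt3-2 replicate 1 or opt3-2 replicate 2, 7 of the autophagy genes rose. Cytosolic-type ribosomal protein genes, the other large group of the protein economy, were seldom called, as of 301 tested 6 rose and 10 fell. The lower count moved with the settings, with 42 in leaves alone, 28 by DESeq2, 23 with RLE factors, 20 without Columbia-0 replicate 3, 5 without Columbia-0 replicate 1 or 2 and 3 without opt3-2 replicate 3. Without opt3-2 replicate 3 or Columbia-0 replicate 1 or 3, 3 rose.

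Auxin genes were lower. Auxin is the hormone of cell expansion and patterning, its AUX/IAA genes respond to it within minutes, TAA1 and YUC enzymes make it, and PIN proteins carry it. Of 20 tested auxin genes, 14 fell (70%, against 12.6% of all genes) and 1 rose, with a median log2 fold change of -0.75. IAA3 (AT1G04240) was at 44.9, 39.4 and 37.4 CPM in opt3-2 leaves and at 90.9, 115 and 97.9 CPM in Columbia-0 leaves (-1.32, SE 0.11, adjusted p = 1.22e-05). IAA17 (-1.16), IAA29 (-1.41), TAA1 (-1), PIN7 (-0.82) and PIN3 (-0.61) fell as well. The 1 member that rose, GH3.6 (0.31), conjugates auxin to amino acids, and its adjusted p was 0.0617 to 0.16 when any one replicate was left out. Its call was also lost with RLE (0.0523) or upper-quartile factors (0.0724), and with no filter on low counts (0.0582). The lowest (0.0784) or middle run alone (0.0783) lost it too. In 18 of the 20 genes (90%, against 23.9% of all genes) all opt3-2 replicates were below all Columbia-0 replicates. Among SAUR genes, the small auxin-induced family, 17 of 63 tested fell (27%) and 5 rose (3 without opt3-2 replicate 1 or 3 or Columbia-0 replicate 1 or 2).

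Gibberellin and brassinosteroid genes fell in 13 of 21 tested cases (61.9%), and 3 rose (1 without any one replicate). The brassinosteroid-making genes CPD, at 279, 284 and 278 CPM in opt3-2 leaves and at 435, 482 and 497 CPM in Columbia-0 leaves (-0.75, SE 0.07, adjusted p = 3.1e-05), DWF4 (-0.93) and BR6OX2 (-0.93) were among them. The gibberellin-regulated peptide gene GASA6 fell by 1.37, the DELLA repressor genes RGA1 and GAI by 0.36 and 0.43, and the gibberellin receptor gene GID1B rose, at 25, 23.2 and 26.8 CPM against 8.91, 10.5 and 13.2 CPM (1.2, SE 0.12). The shade and light-signalling factor gene HFR1, a bHLH, was at 11.2, 9.88 and 9.47 CPM against 47.1, 67.3 and 60.5 CPM in Columbia-0 leaves (-2.52, SE 0.17, adjusted p = 2.77e-06), and PIL1, another shade-response factor, fell by 1.52. Over the bHLH class 25 of 110 tested genes fell (22.7%) and 4 rose (2 without opt3-2 replicate 3).

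Many genes of wall extension and water entry fell with them. Of 19 tested wall loosening and cellulose genes, 14 fell (73.7%) and 1 rose (0 without any one replicate), with a median log2 fold change of -0.72. The wider class of genes named expansin or xyloglucan hydrolase was less one-sided. Of 51 tested, 17 fell (33.3%, against 12.6% of all genes) and 7 rose (13.7%, with 2 to 4 without any one replicate). XTH4 was at 92.1, 94.9 and 96.2 CPM in opt3-2 leaves and at 170, 254 and 187 CPM in Columbia-0 leaves (-1.11, SE 0.15, adjusted p = 0.000312). Cellulose synthases of the primary wall fell, CESA6 by 0.74, CESA1 by 0.47 and CESA3 by 0.42, and so did those of the secondary wall, IRX3 by 1.05, IRX1 by 0.99 and CESA4 by 0.88. TCH4, a touch-induced wall enzyme, had a high value in Columbia-0 replicate 1, with 27.6, 28.8 and 33.4 CPM against 249, 134 and 112 CPM, and did not pass (-2.46, SE 1.05, adjusted p = 0.105, against 0.000353 in leaves alone and 0.000391 with the replicate block).

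Of 18 tested aquaporins, the water channels of the plasma membrane and vacuole, 13 fell (72.2%) and 0 rose, and the median was -0.45. In the wider class of 29 tested genes named aquaporin, 12 fell (41.4%, against 12.6% of all genes). There 0 rose, with 3 higher at an unadjusted p under 0.05. TIP2;1 (AT3G16240), of the vacuolar membrane, was at 333, 354 and 285 CPM in opt3-2 leaves and at 631, 844 and 662 CPM in Columbia-0 leaves (-1.14, SE 0.13, adjusted p = 9.51e-05), while PIP1;5 (-0.78), PIP1;3 (-0.73) and PIP2;1 (-0.64) of the plasma membrane fell by less. Of 19 tested genes of cuticular wax and cutin, 11 fell (57.9%) and 2 rose, the regulator MYB30 (0.63) and the acyltransferase DCR (0.32). The call of MYB30 was lost without any one replicate, with an adjusted p of at most 0.0809, and that of DCR without opt3-2 replicate 1 or 2 or Columbia-0 replicate 2 or 3, with an adjusted p of at most 0.219. The DCR call was also lost by DESeq2 (0.0636), with RLE (0.0596) or upper-quartile factors (0.0636), and with no filter on low counts (0.0596). It was lost as well with the lowest run alone (0.193) and with a covariate for the run set (0.0733). KCS1, which elongates fatty acids for wax, was at 55.9, 64.3 and 52.2 CPM against 107, 124 and 126 CPM (-1.05, SE 0.11), and 7 wax and cutin genes fell when opt3-2 replicate 3 or Columbia-0 replicate 1 was left out. MAH1, the midchain alkane hydroxylase, fell (-2.10, adjusted p = 0.00408), with 5.68, 11.1 and 5.25 CPM against 39.4, 10.7 and 43.9 CPM. In MAH1 Columbia-0 replicate 2 lay among the opt3-2 replicates. Of 14 chloroplast lipid synthesis genes 8 fell and 0 rose, with CAC2, the biotin carboxylase of fatty acid synthesis, at -0.44.

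**Figure D3:**
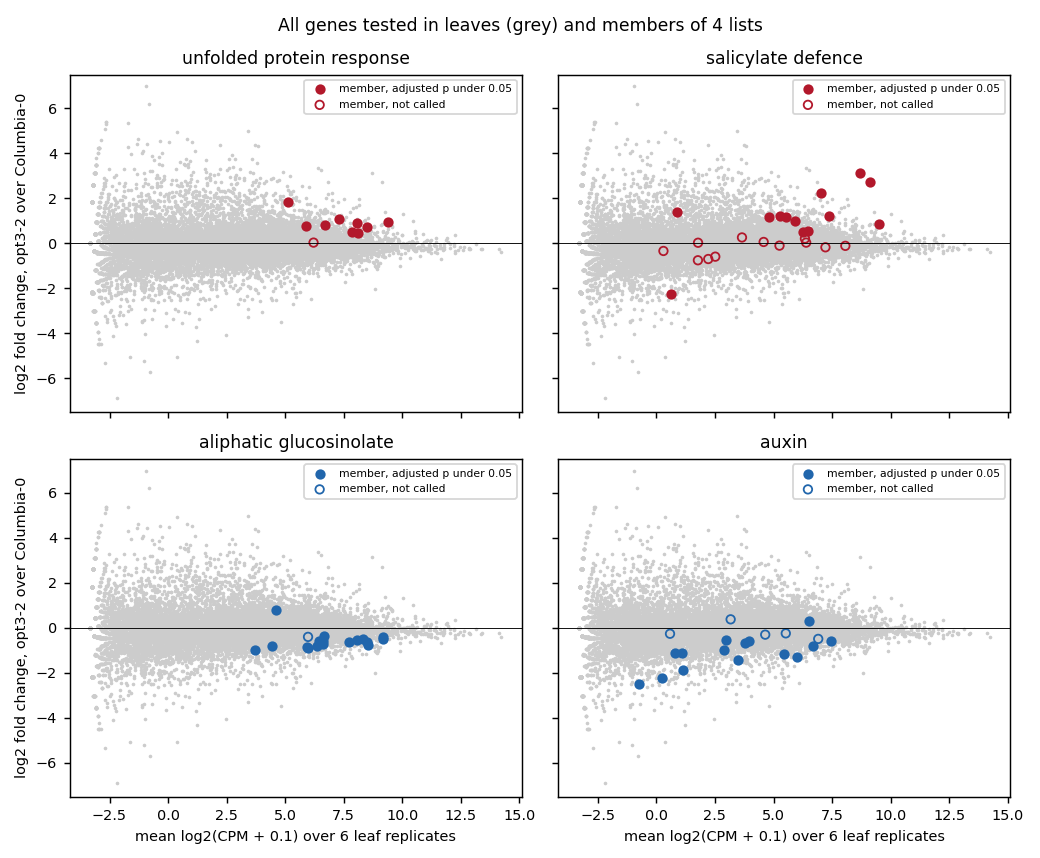
Log2 fold change of opt3-2 over Columbia-0 leaves against the mean of log2(CPM + 0.1) over the 6 leaf replicates, with all tested genes in grey and the members of one list in colour in each of 4 panels, filled where called and open where not. The unfolded protein response members lie above 0, salicylate members divide between a high group led by PR5 at 3.13 and a group near 0, and aliphatic glucosinolate and auxin members lie below 0 apart from MAM3 (0.77), GH3.6 (0.31) and GH3.3 (0.38, not called).

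Cold-regulated genes were lower in opt3-2 leaves although no label speaks of a cold treatment. These genes encode dehydrins and other protective proteins that are induced by cold through CBF factors and also answer to drought. Of 13 tested members, 8 fell (61.5%, against 12.6% of all genes), 0 rose, and all 13 had a log2 fold change below 0, with a median of -0.96. COR15A (AT2G42540), a chloroplast stromal protector, was at 12, 11.1 and 11.9 CPM in opt3-2 leaves and at 48, 45 and 45.6 CPM in Columbia-0 leaves (-1.98, SE 0.14, adjusted p = 3.55e-06). ERD10 (-1.22), COR15B (-0.82) and COR47 (-0.67) fell too. The transcription factor genes CBF1 and CBF2 did not pass, with a high value in Columbia-0 replicate 1: CBF2 was at 0.86, 1.57 and 1.82 CPM against 20.4, 3.92 and 7.69 CPM (-2.90, SE 1.29, adjusted p = 0.121, against 0.00606 in leaves alone and 0.00567 with the replicate block). For 8 members the leaf effect was called lower than the root effect. These include RD29A, which was not called in leaves, and leave out COR15B, which fell in leaves.

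Abscisic acid genes, which govern stomata and drought responses, were called in both directions. Of 21 tested, 8 fell (38.1%, against 12.6% of all genes). The 4 that rose (2 without opt3-2 replicate 2) made up 19%, near the 15.4% of all genes. The 2 strongest changes were in 8'-hydroxylases that degrade the hormone. CYP707A2 was at 26, 25.5 and 26.4 CPM in opt3-2 leaves and at 2.32, 3.25 and 2.33 CPM in Columbia-0 leaves (3.3, SE 0.21, adjusted p = 2.25e-06). CYP707A3 was at 7.62, 10.3 and 11.8 CPM against 102, 29.3 and 29.5 CPM, again with Columbia-0 replicate 1 the highest (-2.43, SE 0.60, adjusted p = 0.0104). The transcription factor gene ABF4 rose by 0.54, while the dehydration-responsive RD22 and the phosphatase gene PP2CA fell by 0.58 and 0.47. Ethylene genes ranged from -2.50 to 1.57 on the log2 scale, and of 18 tested 1 rose (0 without opt3-2 replicate 1 or 3 or Columbia-0 replicate 1 or 2) and 0 fell, with 1 lower at an unadjusted p under 0.05, 0 by limma voom and 1 by DESeq2. In leaves alone 2 ethylene genes were higher and 5 lower, and with a replicate block within tissue 4 were lower. Of 13 tested cytokinin genes 4 fell (30.8%, against 12.6% of all genes) and 0 rose. The lower count was 2 without opt3-2 replicate 1 or 3 or Columbia-0 replicate 1 or 2. For cytokinin genes upward the count was 0 by edgeR, at an unadjusted p under 0.05, by limma voom and by DESeq2. The same held downward for the oxidative stress, proteasome and autophagy groups. It also held upward for the chloroplast lipid and cold groups and for the list of 18 aquaporins.

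Photosynthesis genes differed little in relative terms, and nearly all in the same downward direction. Of the 12 nuclear photosystem I genes and 11 photosystem II genes tested, 0 were called, and all 23 had log2 fold changes below 0, from -0.29 to -0.07 in photosystem I. The count was 0 in both lists at an unadjusted p under 0.05, by limma voom and by DESeq2 as well. In the fit to the 6 leaf replicates alone, 7 photosystem I and 4 photosystem II genes were called lower. Of 21 antenna genes, 4 fell (19%, against 12.6% of all genes), 1 rose and 20 had values below 0. Leaves alone gave 17 lower, and 2 were lower without opt3-2 replicate 2 or 3 or Columbia-0 replicate 1 or 2. LHCB1.4, a major antenna protein of photosystem II, was at 2520, 2589 and 2554 CPM in opt3-2 leaves and at 3530, 4457 and 4275 CPM in Columbia-0 leaves (-0.68, SE 0.17, adjusted p = 0.011), and it shares near-identical copies with its neighbours in the family. LHCB2.3 fell by 0.58. LHCB4.3 was the antenna gene that rose, at 43.7, 41.5 and 39 CPM against 23.5, 11.4 and 15.8 CPM (1.3, SE 0.21, adjusted p = 0.00083).

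In the Calvin cycle 0 of 21 genes passed (5 lower in leaves alone). By edgeR at an unadjusted p under 0.05 1 was lower, and limma voom and DESeq2 each called 2 lower. RBCS1A, a gene of the Rubisco small subunit, was at 9145, 9345 and 8313 CPM in opt3-2 leaves and at 10165, 9495 and 7757 CPM in Columbia-0 leaves, with overlap between the groups (-0.03, SE 0.27). Of 28 chlorophyll and haem synthesis genes 3 fell (10.7%, near the 12.6% of all genes) and 1 rose (0 rose without any one replicate). In leaves alone 12 were called lower, and without opt3-2 replicate 3 only 1 was. Chlorophyll breakdown and senescence genes rose in 8 of 21 tested cases (38.1%) and fell in 2 (1 without opt3-2 replicate 1 or 2 or Columbia-0 replicate 1 or 2). The chlorophyll breakdown genes NYC1 (0.39), PAO (0.50) and SGR1 (0.52) rose moderately. SAG13, a dehydrogenase-like gene of senescence and cell death, was at 296, 249 and 302 CPM against 19.8, 17.1 and 45.8 CPM (3.35, SE 0.33, adjusted p = 3.69e-05), and JUB1, a NAC factor of leaf longevity, rose by 2.66. The central senescence factors ORE1 (0.20) and NAP (0.30) and the gene WRKY53 (-0.57) did not pass, though NAP did by limma voom (adjusted p = 0.0398).

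Genes of carbon metabolism outside the chloroplast rose in part. STP4 (AT3G19930), a hexose importer of sink tissues and infected leaves, was at 174, 171 and 197 CPM in opt3-2 leaves and at 61.4, 68.4 and 72.7 CPM in Columbia-0 leaves (1.42, SE 0.08, adjusted p = 8.93e-07). The cell wall invertase gene CWINV1, whose product splits sucrose outside the cell, was at 70.2, 72.9 and 83.7 CPM against 16.9, 18.6 and 32.8 CPM (1.72, SE 0.21), and the hexose importer STP13 rose by 1.08. SUC2, the sucrose loader of the phloem, fell, with 201, 227 and 212 CPM against 315, 353 and 344 CPM (-0.66, SE 0.08, adjusted p = 0.000159). In all, 8 of 24 sugar transport genes rose (33.3%) and 3 fell, with 4 that rose without opt3-2 replicate 3 or Columbia-0 replicate 2 and 5 without opt3-2 replicate 1. Of 10 tested tricarboxylic acid cycle genes, 7 rose (70%) and 0 fell (0 also at an unadjusted p under 0.05, by limma voom and by DESeq2). The rises were of 0.24 to 0.52 on the log2 scale, led by the iron-sulfur subunit gene SDH2-1 with 66.7, 65.9 and 72 CPM against 48.4, 44.6 and 49.3 CPM (0.52, SE 0.06). The count was 4 without any one of the 6 replicates, and also 4 with RLE factors, with no filter on low counts, or with the middle or highest run alone.

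Nutrient genes were called in both directions. Cytosolic glutamine synthetase GLN1-1, which recycles ammonium, was at 378, 387 and 456 CPM in opt3-2 leaves and at 125, 129 and 159 CPM in Columbia-0 leaves (1.56, SE 0.15, adjusted p = 3.16e-05). Nitrate reductase NIA1 rose by 1.06 and glutamate dehydrogenase GDH1 by 0.74. Of 18 nitrogen genes 5 rose (27.8%, against 15.4% of all genes) and 1 fell (5.56%, against 12.6%). The lower count was 0 without opt3-2 replicate 2 or Columbia-0 replicate 3, and 2 without opt3-2 replicate 3. Among 18 sulfur genes, 4 rose (22.2%) and 3 fell (16.7%), near the shares of all genes. The sulfate importer SULTR1;2 was at 33.7, 31.1 and 29.5 CPM against 13.3, 16 and 12.4 CPM (1.18, SE 0.12), LSU1, a marker of low sulfur, rose by 2.07, and the ATP sulfurylases APS1 and APS3, which activate sulfate, fell by 0.47 and 1.17. Among 16 phosphate starvation genes, 5 rose (31.2%, against 15.4% of all genes), with the sensor SPX1 at 0.87 and the phospholipase PLDP2 at 1.57. In the same list 5 fell (31.2%, against 12.6%), with the galactolipid synthase MGD2 at -0.70.

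The circadian clock runs on evening and morning genes that repress each other. Of 24 tested clock genes, 6 rose (25%, against 15.4% of all genes) and 6 fell (25%, against 12.6%). The count that rose was 3 without any one opt3-2 replicate or without Columbia-0 replicate 1, and 2 without Columbia-0 replicate 2. PRR9 was at 39.7, 40.1 and 42.9 CPM in opt3-2 leaves and at 29.7, 26.7 and 31 CPM in Columbia-0 leaves (0.49, SE 0.08, adjusted p = 0.00105), and PRR5 rose by 1.05, a call lost with the middle run alone (adjusted p = 0.261). The morning gene LHY was at 270, 268 and 244 CPM against 371, 345 and 342 CPM (-0.44, SE 0.09), CDF1 fell by 0.75, and CCA1, LHY's close relative, did not pass (-0.17, adjusted p = 0.274). The labels do not give the hour of harvest. Of 27 cell cycle genes 5 rose (3 without opt3-2 replicate 2 or Columbia-0 replicate 2), with TSO2, a ribonucleotide reductase subunit, at 0.99. That is 18.5%, near the 15.4% of all genes. In that list 1 fell (3.7%, against 12.6% of all genes), and 0 without opt3-2 replicate 3 or Columbia-0 replicate 1 or 2. Of 17 flavonoid and anthocyanin genes edgeR called 0, with 1 higher at an unadjusted p under 0.05, 1 higher by limma voom and 0 by DESeq2. Without Columbia-0 replicate 2, 1 was called lower.

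Iron and copper genes serve here as context. Ferritin FER3 was at 114, 120 and 121 CPM in opt3-2 leaves and at 29.9, 27.6 and 31.2 CPM in Columbia-0 leaves (2.00, SE 0.08, adjusted p = 1.3e-07), and NAS3, which makes the metal chelator nicotianamine, rose by 2.49. The iron superoxide dismutase FSD1 fell by 2.01 while the copper and zinc enzymes CSD2 and CSD1 rose by 1.72 and 1.39. Of 15 iron-sulfur cluster assembly genes 2 rose (1 without Columbia-0 replicate 1 and 0 without any other single replicate) and 2 fell (1 without opt3-2 replicate 2 or 3). Each count is 13.3%, near the shares of all genes (15.4% higher and 12.6% lower).

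Marker genes of tissues moved in the vascular lists. Of 6 phloem markers 5 were lower, and their summed level was 748 to 823 CPM in opt3-2 leaves against 998 to 1134 CPM in Columbia-0 leaves. Of 4 xylem markers 3 were lower, with 49.5 to 64.5 CPM against 80.1 to 93.6 CPM. Mesophyll markers summed to 14245 to 15546 CPM against 15029 to 18804 CPM and 1 of 3 was lower (0 without any one replicate other than Columbia-0 replicate 3). Of 4 epidermis and trichome markers 2 were higher, and 1 or 0 were without any one replicate (205 to 250 CPM against 194 to 210 CPM). Of 5 root markers 4 were under 1 CPM in all leaf replicates, and 0 of 5 were called by edgeR, at an unadjusted p under 0.05, by limma voom or by DESeq2. Of 7 flower, pollen and seed markers, 5 could be tested and 1 was lower (0 without opt3-2 replicate 1 or 3 or Columbia-0 replicate 2 or 3). Of 5 guard cell markers 1 was lower, KAT1 at -1.05. Of 2 tested shoot meristem markers 0 were called by edgeR or limma voom, and 1 was lower at an unadjusted p under 0.05 and by DESeq2. The phloem and xylem markers moved in the same direction as the auxin, wall, OPT3 and SUC2 results. That shared direction is partly built in. SUC2 is itself a phloem marker, and IRX3 is both a xylem marker and a member of the wall list. The part of the markers in those results was not tested.

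**Figure D4:**
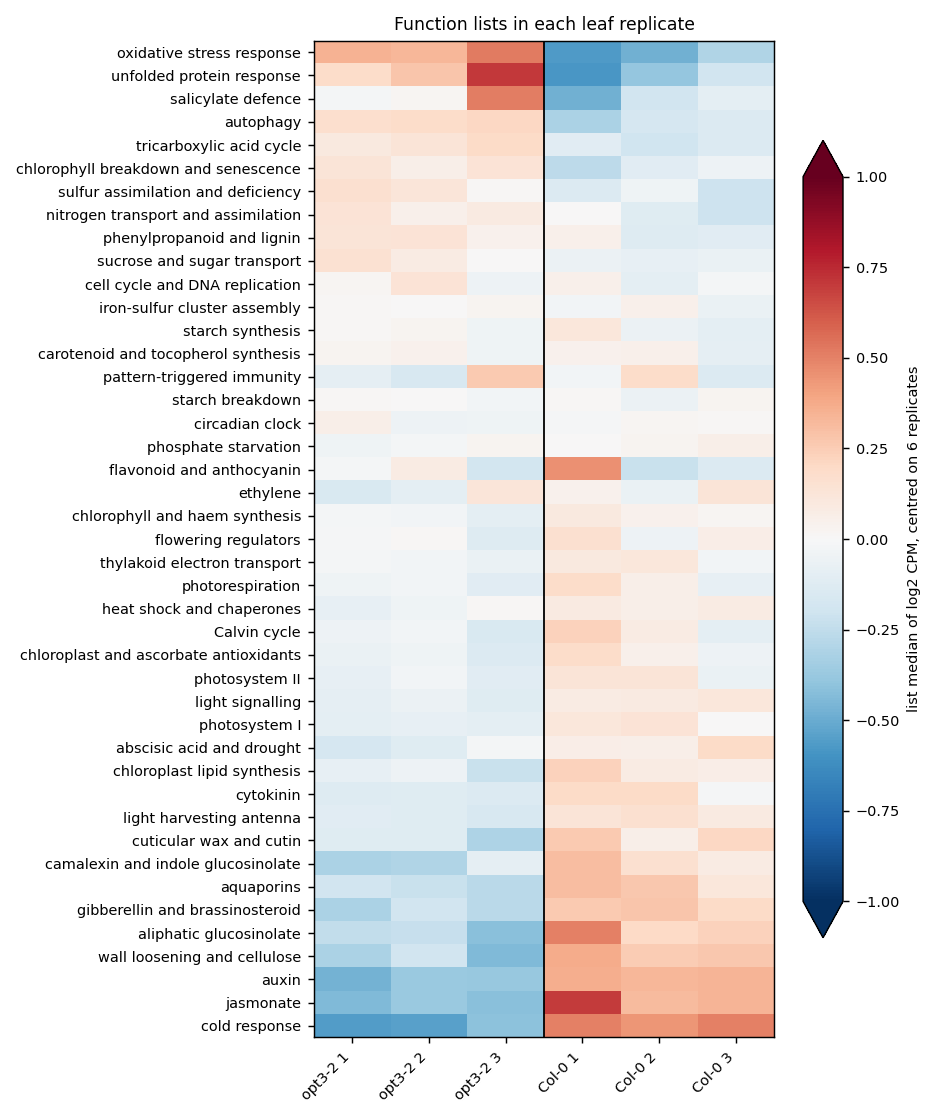
Median over the tested members of each function list of log2 CPM minus the mean of the 6 leaf replicates, with the 3 opt3-2 replicates to the left of the 3 Columbia-0 replicates. The unfolded protein response is at 0.18, 0.28 and 0.71 in opt3-2 replicates 1 to 3, the salicylate list is at -0.02, 0.02 and 0.51, and the jasmonate list is at 0.70 in Columbia-0 replicate 1 against 0.32 and 0.34 in the other two Columbia-0 replicates.

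The replicates were uneven within each genotype. The opt3-2 replicate 3 had the highest median in the unfolded protein response and salicylate lists, and Columbia-0 replicate 1 in the jasmonate and aliphatic glucosinolate lists. The cold and auxin lists were more even, with medians of -0.56, -0.54 and -0.41 in opt3-2 leaves and 0.50, 0.44 and 0.50 in Columbia-0 leaves for cold, and of -0.47, -0.37 and -0.38 against 0.36, 0.33 and 0.34 for auxin.

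The letters TTGACC, a form of the W-box, were more frequent in promoters of genes that rose, read on both strands. They stood in 18.6% of the promoters of genes that rose and in 10.9% of those that fell, against 14.5% of all tested. Among genes that moved by at least 2-fold they stood in 23.3% of those that rose and 7.69% of those that fell. Of the 24 oxidative stress genes 11 held TTGACC (45.8%), and of the 25 salicylate genes 0 did. Of the 20 auxin genes, of which 14 fell, 7 held it (35%). Other forms of the W-box, such as TTGACT, were not counted, so a promoter without TTGACC may still hold a W-box. The heat shock core GAANNTTC was in 12.8% and 9.53% of promoters that rose and fell (11.5% of all), the evening element AAATATCT in 6.48% and 6.55% (5.83%), and the copper core GTAC in 38.3% and 41% (39.5%). The evening element was in 5 of the 13 cold promoters (38.5%). The promoters of 3 genes that rose strongly are shown to place TTGACC, in capitals and written GGTCAA where it lies on the other strand. Each stretch is 100 bases from within the 250 before the start, 5′ to 3′ on the gene's strand, from RefSeq's TAIR10.1 assembly.
CYP82C2 (chr4:15462207-15462306, plus strand): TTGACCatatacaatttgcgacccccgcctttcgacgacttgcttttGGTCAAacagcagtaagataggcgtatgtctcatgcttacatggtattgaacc
AOX1D (chr1:11668700-11668799, minus strand): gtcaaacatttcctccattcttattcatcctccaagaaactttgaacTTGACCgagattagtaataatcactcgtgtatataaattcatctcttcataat
NHL10 (chr2:15110392-15110491, plus strand): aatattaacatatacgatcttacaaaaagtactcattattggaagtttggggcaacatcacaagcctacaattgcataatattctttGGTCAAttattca
CYP82C2 rose by 4.35, AOX1D by 3.29 and NHL10 by 3.26 on the log2 scale. The CYP82C2 promoter holds 3 copies in the window, of which 2 are in the stretch shown. These are descriptions of letters and say nothing of which factor acts.

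The leaf effect was set beside the root effect of the same genotypes, in the same model. In roots 3377 genes (15.6%) were called, 1797 higher (8.28%) and 1580 lower (7.28%), and the leaf effect differed from the root effect in 3503 genes (16.1%), with 1834 more positive in leaves (8.45%) and 1669 more negative (7.69%). Called in both tissues were 937 genes in the same direction and 337 in opposite directions. The difference test was passed by 8 of 10 unfolded protein response genes upward, 8 of 13 cold genes downward and 10 of 20 auxin genes downward. Not all of these were called in leaves. The cold gene RD29A was at -0.63 in leaves, not called, and at 1.81 in roots, called higher. In the auxin list GH3.3 was at 0.38 and 2.88, and IAA2 at -0.49 and 0.48, neither called in leaves. In roots 2 cold genes were called higher and 0 lower, and 1 auxin gene higher and 2 lower. SHD had a log2 fold change of 0.97 in leaves and -0.20 in roots (difference 1.17, adjusted p = 0.00551), COR15A -1.98 and 0.57 (-2.55, adjusted p = 0.0432), and IAA3 -1.32 and -0.13 (-1.19, adjusted p = 0.000415). BIP3 rose in both tissues, by 1.85 and 1.72 (difference 0.13, adjusted p = 0.932). SUC2 fell in leaves and rose in roots (-0.66 and 0.47, adjusted p = 8.01e-05 for the difference), and NIA1 and SULTR1;2 rose in leaves and fell in roots (differences 1.75 and 2.04).

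**Figure D5:**
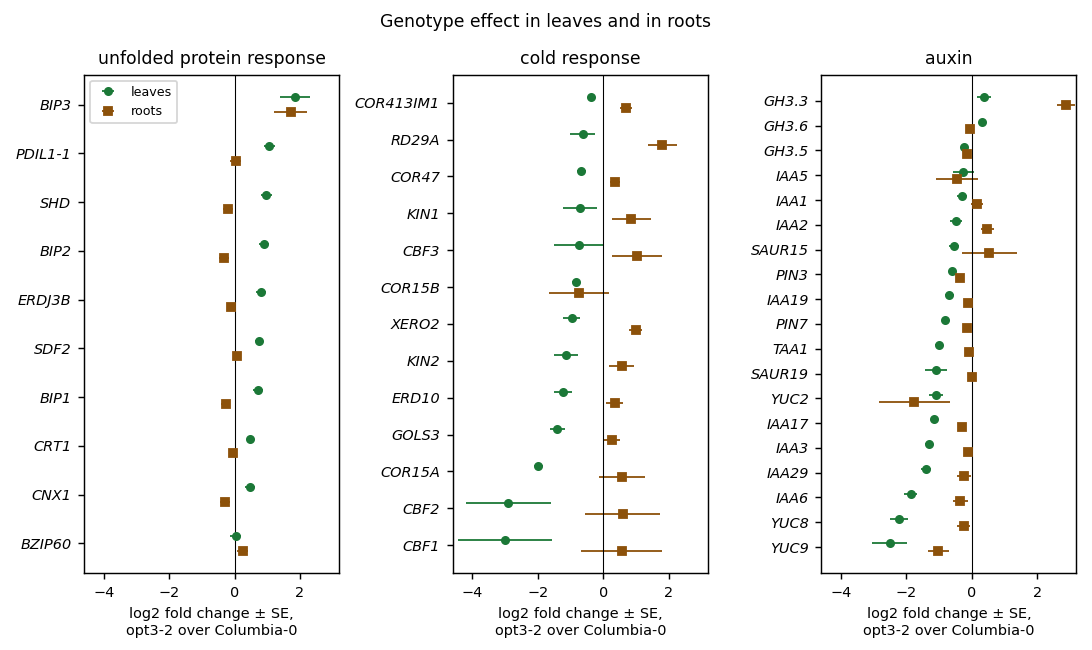
Log2 fold change of opt3-2 over Columbia-0 with its SE for the tested members of 3 lists (19 of the 20 in auxin), with leaves as green circles and roots as brown squares. The chaperones of the unfolded protein response lie right of 0 in leaves and near 0 in roots apart from BIP3 (1.85 in leaves and 1.72 in roots), the cold genes lie left of 0 in leaves, and most auxin genes lie further left in leaves than in roots.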

How the data were processed

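The submitters' processing notes name TopHat2, edgeR and the TAIR10 build. Their versions, the counting tool and its strand setting are not given there, so overlapping and antisense genes cannot be told apart. The authors deposited 1 table of raw counts for 28775 genes in 72 columns. Of these, 36 were used and 36 could not be matched to a sample and were not used. The 3 runs of each biological replicate were summed, giving 12 replicates in 4 groups of 3 (opt3-2 and Columbia-0, leaf and root). Runs of 1 replicate agreed within sampling noise, with chi-square per degree of freedom of 1.02 to 1.07 against 3.22 to 15.41 between biological replicates.

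One model over all 4 groups was fitted with edgeR 4.0.16 in R 4.3.3 (TMM factors, filterByExpr, quasi-likelihood F test, 8 residual degrees of freedom, Benjamini-Hochberg adjustment over 21692 genes, threshold 0.05). The common biological coefficient of variation was 0.137. The SE was derived from the log2 fold change and F. CPM values use TMM-scaled library sizes, and differ between genes with transcript length. Alternatives were RLE and upper-quartile factors, limma voom 3.58.1, DESeq2 1.42.0, no filter or a mean of 10 reads, leaves alone, a replicate block, single runs, a run-set covariate, and each leaf replicate left out. The fit was tested on simulated data with 21659 genes.

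The members and the 43 function lists, 8 marker lists and 36 name-based classes were chosen with earlier results of these data known, so a list's count is a description. Genes were named by rule: OPT3, the 10 highest and 10 lowest called genes without overlap whose log2 CPM averaged 1 or more, the 5 largest gains and losses, up to 4 called members a list and 2 a class, or the 2 most abundant members where fewer than 2 were called. Other list members in the text, such as ICS1, SARD1, PAD4, MYC2, OPR3, CYP79B3 and BZIP60, were chosen after their values were seen. The values of 1 auxin gene are not reported here by themselves. RefSeq (TAIR10.1) gave names for 28009 genes by locus, and coordinates and promoters. Figures and tables used Python 3.11.15, pandas 2.3.3, numpy 2.4.6 and matplotlib 3.10.9. The intervals of counting error are small beside the spread between replicates and are not given.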

Additional observations from a re-analysis of the deposited data

Results flagged for a closer look

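The results below were singled out because a gene was called in leaves and in roots of the same genotypes in opposite directions, with the difference between the 2 effects itself called by edgeR's quasi-likelihood test over all genes. There were 18 such genes among those named by rule, each given as the log2 fold change of opt3-2 over Columbia-0 in leaves, then in roots, and the leaf effect minus the root effect.

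AT5G59530, of the 2-oxoglutarate and Fe(II) oxygenase superfamily, was at 9.49, 8.66 and 8.09 CPM in opt3-2 leaves and at 0.755, 0.935 and 1.16 CPM in Columbia-0 leaves, and gave 3.17 and -0.44, a difference of 3.62 (SE 0.18, adjusted p = 8.95e-07). AT1G52800, of the same superfamily, was at 21.5, 21.4 and 20.9 CPM against 5.39, 4.85 and 5.51 CPM, and gave 2.02 and -1.44, a difference of 3.45 (SE 0.24, adjusted p = 6.31e-06). In both genes the leaf replicates of the genotypes were far apart. The lipase-like gene AT1G29670 gave -1.1 and 1.26 (difference -2.36).

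Sulfur and nitrogen genes were among them. APS3, an ATP sulfurylase, gave -1.17 and 2.24 (difference -3.41, SE 0.33), and the sulfate importer SULTR1;2 gave 1.18 and -0.86 (2.04). ASN1, which makes asparagine from glutamine, gave -1.16 and 1.43 (-2.60), and NIA1, a nitrate reductase, 1.06 and -0.68 (1.75). PAP17, a purple acid phosphatase, gave 0.57 and -0.49 (1.06).

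Genes of phenylpropanoid synthesis moved in both senses. PAL2 gave -0.47 and 2.62 (difference -3.09), and PAL4 -0.76 and 0.52 (-1.28), while FAH1, the ferulate hydroxylase of syringyl units, gave 1.17 and -0.91 (2.09). The leaf call of PAL2 was lost without any one opt3-2 replicate or without Columbia-0 replicate 1, with an adjusted p of at most 0.105.

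In the phloem, the sucrose loader gene SUC2 gave -0.66 and 0.47 (difference -1.13) and the lectin gene PP2-A1 -0.47 and 0.61 (-1.08). Of chloroplast enzymes, the tocopherol gene VTE2 gave 0.67 and -0.41 (1.08), the peroxidase gene GPX1 -0.31 and 0.50 (-0.81), and the ascorbate peroxidase gene SAPX 0.30 and -0.21 (0.51). ABCI8, a gene of iron-sulfur assembly in plastids, gave 0.29 and -0.34 (0.63), and its leaf call was lost without any one leaf replicate, with an adjusted p of at most 0.0856. With the highest run alone it was lost as well (0.0819). ROF2, a prolyl isomerase, gave 0.53 and -0.64 (1.17), and its leaf call was lost without opt3-2 replicate 3 (adjusted p = 0.0579). That call was also lost with the lowest (0.052) or highest run alone (0.193).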

How the results depend on the processing

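Genes called in leaves numbered 6090 and 4138 to 7707 under 19 alternatives, and 4138 to 5342 when 1 leaf replicate was left out. Genes called higher numbered 3349, against 2051 to 2557 without 1 replicate (2051 when opt3-2 replicate 3 was left out, and 2229 for Columbia-0 replicate 1), 2183 with the middle run alone and 2115 with the highest. Genes called lower numbered 2741, and 2087 to 2785 without 1 replicate. The leaf effect differed from the root effect in 3503 genes, in 2503 to 3258 without 1 replicate, and in 2315, 2223 and 2278 with the lowest, middle or highest run alone, where depth was lower. Among called genes the share that was higher was 55%, and 46.2% to 56.5% under the alternatives, so the direction with more calls was not stable. It was the lower one by DESeq2 (2985 higher and 3474 lower), with RLE or upper-quartile factors, with no filter on low counts, in leaves alone, with the highest run alone and without any one leaf replicate. The median log2 fold change of all genes moved by no more than 0.04. Replicate numbers did not pair the leaf samples: the deviations of same-numbered samples correlated at -0.07, -0.04 and 0.01, and 0 of 6 samples correlated best with their own number. In roots, which share the fit and its spread, the correlations were 0.466, 0.157 and 0.46. With the replicate block within tissue 6367 genes were called in leaves and 3760 for the leaf effect minus the root effect. Of 192 genes named in the text, 23 crossed the threshold under at least 1 alternative and 0 reversed. Of 1710 list counts under alternatives, 301 moved by over 1.5 times. In simulated data 16 of 50 genes changed by 1.5-fold were called, and 48 of 50 at 2-fold. Every simulated gene had the same coefficient of variation (0.137), and the changed genes averaged at least 50 reads. The power for real genes with another spread or fewer reads is therefore not known, and a missed call does not show that a gene was unchanged.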

Other observations

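Protein classes outside the lists of the report are given here beside the shares of all genes. Of 97 tested 2-oxoglutarate and Fe(II) oxygenases, enzymes that hold iron in the active site, 27 rose (27.8%, against 15.4% of all genes) and 11 fell. Of 72 tested NAC transcription factors 20 rose (27.8%) and 9 fell, with NAC003 at 26.2, 25.5 and 25.6 CPM in opt3-2 leaves and at 4.63, 5.08 and 9.94 CPM in Columbia-0 leaves (log2 fold change 1.96, SE 0.21, adjusted p = 6.63e-05). Cytochromes P450 were called often in both directions, with 42 of 197 higher (21.3%) and 37 lower (18.8%, against 12.6% of all genes). ABCG40, an abscisic acid importer, was at 72.2, 60.5 and 99.1 CPM against 7.15, 6.06 and 19.1 CPM (2.83, SE 0.37, adjusted p = 0.000245), and of 65 ABC transporters 14 rose (21.5%) and 9 fell (13.8%). The glucosyltransferase gene UGT73B2 was at 41.7, 40.8 and 61.5 CPM against 9.37, 11.1 and 11.8 CPM (2.15, SE 0.16).

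Genes of pentatricopeptide repeat proteins, which act on RNA in chloroplasts and mitochondria, were called less often than all genes in both directions. Of 262 tested, 3 rose (1.15%, against 15.4% of all genes) and 23 fell (8.78%, against 12.6%). The lower count was 11 without opt3-2 replicate 3, 14 without opt3-2 replicate 2, 15 without Columbia-0 replicate 1 and 12 without Columbia-0 replicate 2. Starch synthesis genes were called in 2 of 13 cases, both lower (4 without Columbia-0 replicate 3). That is 15.4%, near the 12.6% of all genes called lower. GBSS1, which makes amylose, was at 234, 213 and 196 CPM in opt3-2 leaves and at 400, 314 and 262 CPM in Columbia-0 leaves (-0.60, SE 0.13, adjusted p = 0.00474), with no overlap between the groups.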
